A study of Schizosaccharomyces pombe with 12 samples.

Results

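Substitutions of the same residue of histone H3, 1 to arginine and 1 to valine, were set against each other in Schizosaccharomyces pombe (fission yeast): they replace glycine 34 and are called G34R and G34V. The comparison holds the 3 libraries labelled as the G34R mutation and the 3 labelled as the G34V mutation, 6 of the 12 RNA-seq libraries of the series. All gene rows of the deposited count tables were members, 7013 in each library, of which 6602 passed the filter on low counts and 411 did not. The 3 libraries with wild-type H3 (WT) are given alongside as a level, and 3 libraries of a Set2D mutant with wild-type H3 entered the fit for its estimate of spread. All groups grew overnight in rich medium (YES) at 25 °C, with 2 µg of RNA, freed of ribosomal RNA, going into each library. The labels give no other allele for any group, do not say which H3 gene carries the mutation, and do not state whether replicates were separate cultures or clones. P-values below therefore cover only library-to-library spread, which may be technical.

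The tail of histone H3 leaves the nucleosome close to glycine 34, and lysine 36, its near neighbour, is methylated by Set2 as RNA polymerase II transcribes a gene. In yeasts this mark recruits a histone deacetylase that keeps transcription from starting inside genes, and lysine 36 can also be acetylated. Arginine is large and positively charged while valine is small and hydrophobic, and both replacements of glycine 34 in human H3.3 are known from childhood brain tumours. Fission yeast has 3 genes for H3, and the coding bases around residue 34 of hht2 are shown here because this codon is the one that differs between the compared strains if hht2 carries the mutation. The sequence is the RefSeq reference (build ASM294v3, plus strand, chrII:1365233-1365289), with the codon of residue 34, counted without the first methionine, in capitals.
hht2: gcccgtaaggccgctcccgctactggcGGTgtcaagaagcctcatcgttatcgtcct
Counts are per gene, so the base at this codon was not read in the strains. RNA of hht2 was at 727, 689 and 673 CPM (counts per 1000000 counts in genes, scaled by TMM) in the 3 G34R libraries and at 665, 681 and 638 CPM in the 3 G34V libraries. The 2 groups overlapped, and the log2 difference, G34R minus G34V, was 0.075 (SE 0.040, adjusted p = 0.13 in edgeR's quasi-likelihood test). The other H3 genes were far lower, at 0.121 and 0.128 CPM for hht1 and at 2.12 and 2.21 CPM for hht3 in G34R and G34V, and neither passed the test. Nearly all H3 RNA counted in both mutants thus came from hht2.

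Counts in genes ran from 65797517 to 219767664 over the 6 libraries, and 3 counts, the floor used for a gene at 0, came to between 0.0135 and 0.0460 CPM. Log values correlated at 0.998 to 0.999 within the groups and at 0.994 to 0.995 between them across genes, which are not independent replicates. The first principal component of the 6 libraries held 70.3% of the variance and placed all 3 G34R libraries apart from all 3 G34V libraries. The second held 11.9% and set G34V replicate 3 apart from the other G34V libraries. Reads that aligned to several places, which the counting left out, took 13.4% ± 0.232 (SD, n = 3) of all reads in G34R, 12.3% ± 0.0466 in G34V and 12.9% in WT. Their share was higher in all 3 G34R libraries than in any G34V library, with an exact two-sided permutation p of 0.1, the smallest that 3 against 3 allows. Of the mating type genes, the P genes mat2-Pc and mat2-Pi were at 0 counts in all 6 libraries, which allows up to 0.0460 CPM in the shallowest of them and covers counting error only. Reads that align to several places were left out, so a 0 in the mating type cassettes is no limit on expression. The M-factor gene mfm1 was detected in every library.

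The mutants differed by small amounts in a large share of genes and by large amounts in few. Of the 6602 genes tested, 1667 were higher in G34R (25.2%) and 1670 were higher in G34V (25.3%) at an adjusted p under 0.05 in edgeR's test. Among the 3337 called genes (50.5%) the median absolute log2 difference was 0.17, and 2415 of them differed by less than 1.2-fold. At least 2-fold differences were found in 81 genes (1.23%), 39 higher in G34R and 42 higher in G34V. Single libraries of the 2 groups did not overlap in 4010 genes (60.7%). For reference, 53.4% of genes were called in G34R against WT and 50.1% in G34V against WT. Those 2 comparisons share the WT libraries.

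**Figure D1:**
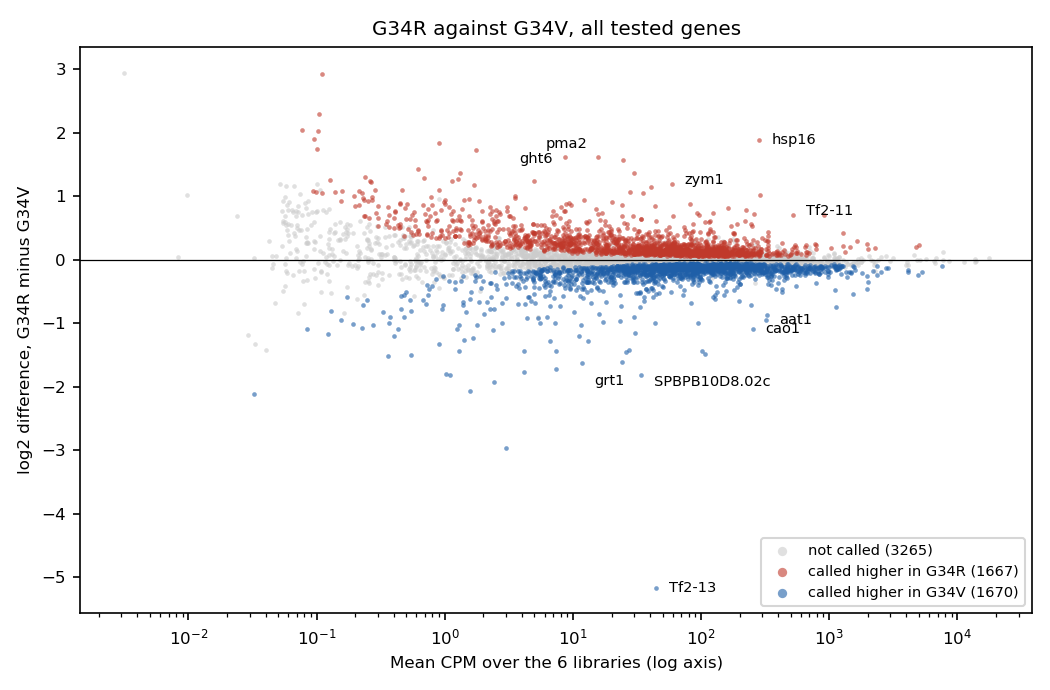
Log2 difference, G34R minus G34V, of each tested gene (vertical axis) against its mean CPM over the 6 libraries (horizontal axis, log scale); red points were called higher in G34R (1667), blue points higher in G34V (1670) and grey points not called (3265). Most called points lie close to the line at 0, while Tf2-13 lies at −5.16 and hsp16 at 1.88.

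Most of the 2-fold genes higher in G34V lay near chromosome ends, and few of those higher in G34R did. Of the 42 higher in G34V, 27 lay within 100 kb of an end of chromosome I or II, and 31 within 150 kb. Of the 39 higher in G34R, 1 did. Of all 6602 tested genes, 145 lay within 100 kb of an end of chromosome I or II. Protein-coding genes made up 26 of the 42 and 16 of the 39, and tRNA genes 1 and 8. Many of these genes were scarce: 22 of the 42 and 28 of the 39 had means under 5 CPM in both mutants.

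Among coding genes with at least 5 CPM in a mutant, hsp16 had the largest difference in the direction of G34R. It encodes a small heat shock protein, which binds unfolded proteins. Its RNA was at 436, 468 and 433 CPM in the 3 G34R libraries and at 124.76, 123.13 and 115 CPM in the 3 G34V libraries, with WT at 118, 122 and 127 CPM. The G34V and WT libraries overlapped and every G34R library lay above them, a 3.67-fold difference (log2 1.88, SE 0.039, adjusted p = 5.1e-14, edgeR's test). Against WT, hsp16 differed by 1.86 on the log2 scale in G34R (adjusted p = 7.7e-14 in edgeR's test) and by −0.016 in G34V (adjusted p = 0.74 in edgeR's test). The 6 tested genes on each side of it differed by at most 0.28 on the log2 scale, so the difference was not shared by its neighbours. In RNA from whole cultures, more RNA per cell and more cells with the RNA cannot be told apart, here and below.

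Of the other 11 genes of this set, 4 encode membrane pumps or transporters, a grouping made after the values were seen. The plasma membrane proton pump gene pma2 was at 24.6, 23.1 and 22.7 CPM in G34R and at 7.29, 7.42 and 8.34 CPM in G34V, with WT at 6.69 ± 0.170 CPM (SD, n = 3). All G34R libraries were above all others, by 3.07-fold over G34V (log2 1.62, SE 0.050, adjusted p = 1.8e-12, edgeR's test). Its paralog pma1, the main proton pump, had the opposite direction and a small size, with a log2 difference of −0.18, adjusted p = 0.0029 in edgeR's test. The hexose transporter gene ght6 was at 13.6, 13.1 and 12.7 CPM in G34R, 4.85, 3.75 and 4.06 CPM in G34V and 10.5, 10.4 and 10.0 CPM in WT. Here G34R lay above WT and G34V below it, and no library of the 2 mutants overlapped (log2 1.61, SE 0.071, adjusted p = 1.4e-10, edgeR's test). The cation pump gene cta3 stood at 56.1 ± 2.40 CPM in G34R, 25.3 ± 0.737 in G34V and 38.4 ± 1.86 in WT (SD, n = 3; log2 1.14), again on both sides of WT. For SPBC23G7.13c, annotated as a urea transporter, the means were 37.7 ± 2.12, 18.0 ± 0.0676 and 53.8 ± 3.97 CPM in the same order (log2 1.07), so that both mutants were below WT and G34V the more so.

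The remaining coding genes of this set have varied annotations. SPBC2G2.17c, the beta-glucosidase gene Psu2, was at 37.5, 35.8 and 35.7 CPM in G34R and 11.998, 12.5 and 12.6 CPM in G34V, with a mean of 14.8 CPM in WT (log2 1.56, SE 0.047, adjusted p = 1.2e-12, edgeR's test). The metallothionein gene zym1, whose protein binds zinc, was at 81.7, 85.4 and 80.6 CPM in G34R, 37.9, 35.5 and 34.9 CPM in G34V and 76.6, 76.4 and 75.02 CPM in WT. G34R was slightly above WT and G34V far below it in all libraries (log2 1.19, SE 0.036, adjusted p = 1.2e-12, edgeR's test). G34V was likewise the group farther from WT for SPAC4H3.08, annotated as a 3-hydroxyacyl-CoA dehydrogenase (16.1 ± 1.598 in G34R, 8.38 ± 0.444 in G34V and 16.8 ± 0.929 CPM in WT, SD with n = 3; log2 0.94), and for SPAC869.09, a Con-6 family gene (6.98 ± 1.04, 2.99 ± 0.402 and 5.92 ± 0.132 CPM; log2 1.23). SPAC869.09 was the 1 gene of the 39 that lay within 100 kb of an end of chromosome I or II. The other 3 were SPCC737.04 (log2 1.37), SPCPB16A4.06c (log2 1.05) and lsd90 (log2 1.01), and all 12 genes of the set had adjusted p-values of 0.00038 or less in edgeR's test.

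In the direction of G34V the coding gene with the largest difference was Tf2-13, an insertion of the Tf2 retrotransposon, described with its family below. Next came SPBPB10D8.02c, annotated as an arylsulfatase, at 56.8, 52.8 and 49.6 CPM in the 3 G34V libraries, 14.2, 15.6 and 15.2 CPM in the 3 G34R libraries and 19.9, 19.9 and 19.8 CPM in WT. G34V was above WT and G34R below it, without overlap (log2 −1.82, SE 0.047, adjusted p = 5.1e-13, edgeR's test). The neighbouring cysteine transporter gene SPBPB10D8.01 had means of 42.4 ± 1.34 CPM in G34V, 19.0 ± 0.920 in G34R and 21.7 ± 0.364 in WT (SD, n = 3; log2 −1.15). The transcription factor gene grt1 was at 17.6, 17.7 and 17.5 CPM in G34V and 6.02, 5.71 and 5.50 CPM in G34R, with WT at 22.3, 20.7 and 22.03 CPM. In this case the WT level was above that of both mutants, and G34R was the farther from it (log2 −1.62, SE 0.040, adjusted p = 1.9e-13 for G34R minus G34V, and −1.93 against WT for G34R and −0.30 for G34V, all in edgeR's test).

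Amino acid genes stood among the others. The alanine racemase gene alr2 was at 151, 149 and 145 CPM in G34V, 50.6, 54.5 and 58.3 CPM in G34R and 111, 112 and 105 CPM in WT, with the WT libraries between the 2 mutants (log2 −1.44, SE 0.049, adjusted p = 2.2e-10, edgeR's test). The amino acid permease gene SPBPB2B2.01 had means of 36.4 ± 2.20 CPM in G34V and 12.03 ± 1.32 in G34R (SD, n = 3; log2 −1.62), and SPBPB2B2.05, of the glutamine amidotransferase family, 15.4 ± 1.21 and 6.72 ± 0.316 CPM (log2 −1.20). Copper amine oxidase, encoded by cao1, was at 349, 347 and 340.0 CPM in G34V, 164, 159.9 and 160.2 CPM in G34R and 166, 167 and 168 CPM in WT. All G34V libraries lay far above those of G34R and WT, which lay close together (log2 −1.10, SE 0.021, adjusted p = 9.0e-15, edgeR's test). Its neighbour SPAC2E1P3.05c, with a cellulose-binding domain, followed it (158 ± 15.2 CPM in G34V, 56.1 ± 5.80 in G34R and 54.8 ± 1.32 in WT; log2 −1.49). The membrane protein gene SPAC977.02 and 2 genes for cell surface glycoproteins, pfl7 and pfl9, made up the set, and its 12 genes had adjusted p-values of 8.7e-07 or less in edgeR's test.

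**Figure D2:**
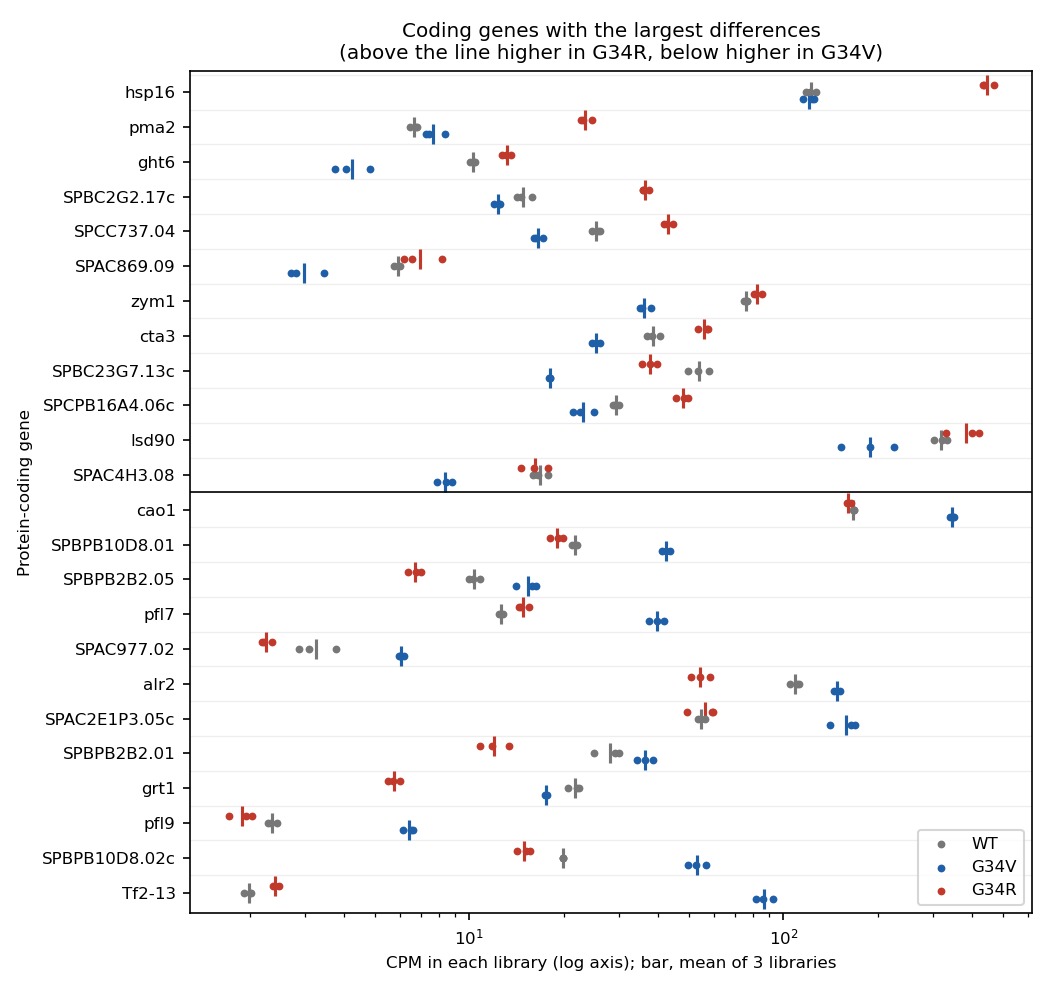
CPM in each library (horizontal axis, log scale) of the 12 coding genes with the largest differences in each direction, those higher in G34R above the line and those higher in G34V below it; points are libraries of WT (grey), G34V (blue) and G34R (red), and bars are means of 3. No red point overlaps a blue point in any row, while WT lies with G34V for hsp16, with G34R for cao1 and between the mutants for alr2 and cta3.

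The ends of chromosomes I and II were where the 2 mutants differed in 1 direction over long stretches. Subtelomeric genes of fission yeast lie in chromatin that is partly silenced, and many encode transporters, permeases and cell surface proteins that are used in starvation. Within 100 kb of these ends 145 of 168 genes were tested: 93 were higher in G34V, 11 higher in G34R and 41 not called, with a median log2 difference of −0.45 against 0.00023 over all tested genes. Within 50 kb 45 of 64 were higher in G34V and 3 in G34R, with a median of −0.72. Genes more than 200 kb from these ends divided evenly, 1087 higher in G34R and 1091 in G34V of 4479. At the ends of chromosome III, which carry the ribosomal DNA, the shift was smaller: 38 of 89 tested genes were higher in G34V and 11 in G34R, with a median of −0.080.

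Each of the 4 ends had its own extent. Over all tested genes, 25.3% were higher in G34V and 25.2% in G34R. On the left of chromosome II, 24 of 31 genes within 100 kb were higher in G34V and the other 7 were not called, with a median of −0.71, and 7 of the 9 genes between 100 and 125 kb were still higher in G34V. On the right of chromosome II, all 17 genes tested between 25 and 75 kb were higher in G34V, while between 75 and 100 kb 3 were higher in each mutant. On chromosome I, 26 of 43 genes of the left end and 22 of 41 of the right end were higher in G34V, with medians of −0.40 and −0.34. The row named tlh2, a RecQ type helicase gene 6.905 kb from the right end of chromosome II, went the other way: it was at 10.4, 12.7 and 12.6 CPM in G34R, 5.67, 7.10 and 6.96 CPM in G34V and 19.5, 18.6 and 18.0 CPM in WT. Both mutants were below WT and G34V was below G34R without overlap (log2 0.90, SE 0.092, adjusted p = 9.0e-06, edgeR's test). The matched RefSeq product of this row bears the name Tlh1, so which of the near copies it stands for is in doubt. For the row named tlh1 the mutants overlapped (log2 −0.27, adjusted p = 0.26 in edgeR's test), and under 7% of the 50-base words of either gene occur once in the reference, so their counts rest on few reads that could be placed.

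**Figure D3:**
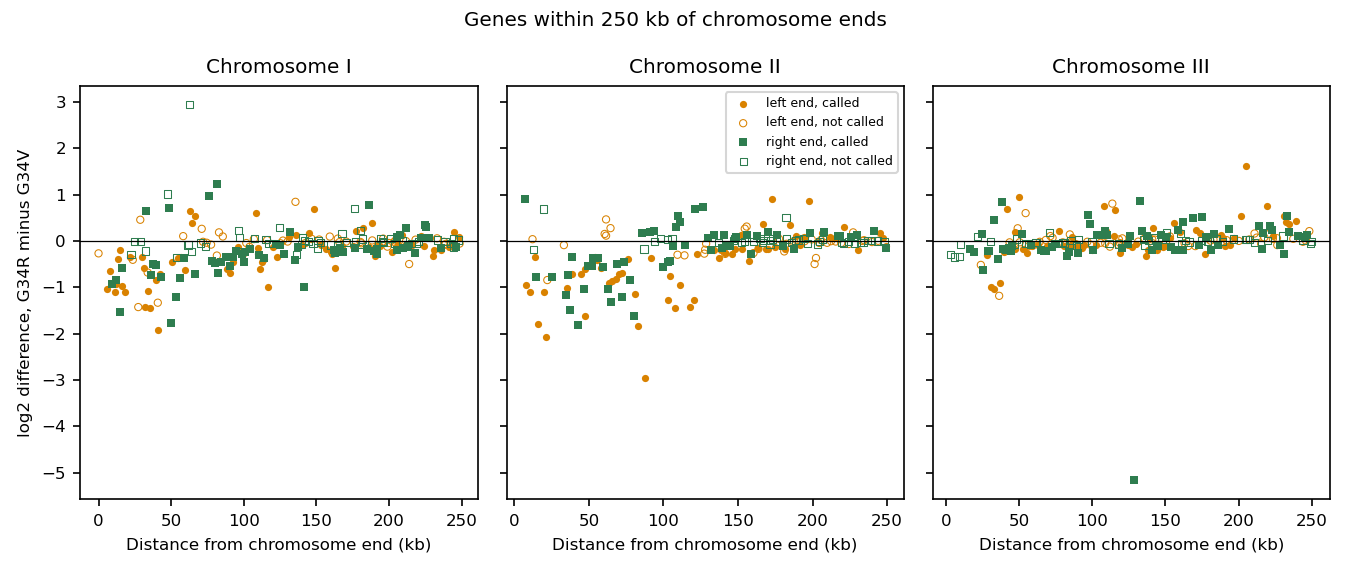
Log2 difference, G34R minus G34V (vertical axis), against distance from the nearer chromosome end in kb (horizontal axis) for genes up to 250 kb away, with a panel each for chromosomes I, II and III; filled symbols passed the test, open ones did not, circles mark left ends and squares right ends. Filled symbols in the first 100 kb of I and II lie mostly below 0, and most of those of chromosome III lie closer to 0. Points of chromosome III far from 0 include Tf2-13 at −5.16 and ght6 at 1.61. Near its left end they include SPCP20C8.03 at −1.03, SPCP20C8.02c at −0.996, SPCC1884.01 at −0.90 and, in the other direction, SPNCRNA.451 at 0.94.

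Genes of unique and of repeated sequence were both mostly higher in G34V near these ends. Of the 145 genes near the ends of I and II, 89 had at least 95% of their 50-base words at a single place in the reference, and among these 50 were higher in G34V and 10 in G34R, with a median of −0.35. In the other 56 the counts were 43 and 1, with a median of −0.78. Of all 5644 tested genes with at least 95% unique words, 1427 were higher in G34V and 1382 in G34R. Of all 257 under 95%, 76 were higher in G34V and 61 in G34R. This division was chosen after the values were seen.

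Runs of neighbours called in the same direction, sought after the values were seen, were longest there. The longest held 19 features in a row on the right arm of chromosome II, from SPBPB2B2.01 to SPBCPT2R1.04c, between 25.2 and 80.0 kb from the end, all higher in G34V with a median of −0.77. It takes in the galactose genes, which convert galactose to a form that glycolysis can use: galactokinase gene gal1 was at 57.5, 51.1 and 50.5 CPM in G34V and 36.2, 39.7 and 33.8 CPM in G34R (log2 −0.54, SE 0.081, adjusted p = 0.00036, edgeR's test), with gal10 at −0.53 and gal7 at −0.36. WT means of gal1, gal7 and gal10 were 49.9, 50.5 and 43.9 CPM, nearer to G34V than to G34R. The next run, of 12 features, on the left arm of chromosome II, from SPNCRNA.1304 to alr2, held SPBPB10D8.01, SPBPB10D8.02c and SPBPB10D8.03. SPBPB10D8.03, named here after its values were seen, was at 5.31, 5.28 and 5.23 CPM in G34V and 0.767, 0.617 and 0.683 CPM in G34R, a 7.79-fold difference (log2 −2.96, SE 0.082, adjusted p = 5.1e-13, edgeR's test), with WT between the mutants at 1.54 ± 0.163 CPM. The 9 features from SPAC212.10 to SPAC212.04c on the left of chromosome I and 8 around grt1 on the left of chromosome II made the next longest runs near ends, with medians of −0.92 and −0.65. Away from the ends, runs in the direction of G34R had at most 5 features, with medians of at most 0.31, and 1 run of 8 features, from mrpl8 to SPBC1271.07c on chromosome II, was higher in G34V with a median of −0.14.

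Far from any end, the stretch beside cao1 also differed as a block, found after the values were seen. It lies on chromosome I next to Tf2-3, and 5 features in a row were higher in G34V: cao1, SPAC2E1P3.05c, and the noncoding RNAs SPNCRNA.861 (log2 −0.98), SPNCRNA.862 (log2 −1.46) and SPNCRNA.863 (log2 −0.75). SPNCRNA.863 stood at 1432, 1417 and 1398 CPM in G34V and 771, 862 and 894 CPM in G34R, without overlap. On the other side of Tf2-3 the ammonium transporter gene amt3 was higher in G34R, at 66.5 ± 4.31 against 46.5 ± 1.79 CPM (SD, n = 3; log2 0.52, SE 0.047, adjusted p = 1.1e-06, edgeR's test). The next coding gene beyond the block, SPAPB2C8.01, named for its place, had a log2 difference of 0.014, adjusted p = 0.78 in edgeR's test.

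Tf2 elements are the full-length retrotransposons of fission yeast, which copy themselves through RNA. Of 13 Tf2 rows 12 were tested, with a median of 0.35. Over all tested genes, 25.2% were higher in G34R and 25.3% in G34V. Of the 12 Tf2 rows, 5 were higher in G34R, 1 was higher in G34V and 6 were not called. The exception was Tf2-13, on chromosome III, at 92.6, 86.0 and 81.7 CPM in the 3 G34V libraries, 2.37, 2.41 and 2.47 CPM in the 3 G34R libraries and 2.03, 2.00 and 1.92 CPM in WT. Every G34V library was thus far above every other library, a 35.9-fold difference between the mutants (log2 −5.16, SE 0.064, adjusted p = 2.8e-17, edgeR's test). Tf2-11, on chromosome II, was at 626, 667 and 649 CPM in G34R, 409, 411 and 378 CPM in G34V and 706, 702 and 744 CPM in WT, so that it was lowest in G34V (log2 0.70, SE 0.037, adjusted p = 1.3e-09, edgeR's test). Tf2-2, Tf2-4 and Tf2-10 were also higher in G34R without overlap (log2 0.48, 0.61 and 0.59). The call of Tf2-6 (log2 0.30, adjusted p = 0.036 in edgeR's test) was lost without G34R replicate 2 or 3 or without G34V replicate 2 or 3, with adjusted p-values from 0.063 to 0.14 in edgeR's test. Among the elements not called, Tf2-1, Tf2-3, Tf2-5 and Tf2-12 were called higher in G34R without G34R replicate 1, Tf2-7 was without G34V replicate 3, Tf2-1 was in DESeq2, and Tf2-1, Tf2-3 and Tf2-5 were in limma voom.

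The elements are near copies of each other, which bears on what a count of 1 of them holds. Over 4002 aligned bases Tf2-13 was 99.6% to 99.98% identical to each of the other 12, and 1.24% of its 50-base words occur once in the reference, against 9.06% for Tf2-11 and a median of 0% over the family. Its counts therefore came from few bases, and reads of other copies, also of any copy absent from the reference, cannot be told apart from reads of Tf2-13 elsewhere in its length. Beside Tf2-13, the noncoding RNA SPNCRNA.1287 lies 0.235 kb away on the same strand and was higher in G34R, at 96.5, 111 and 109 CPM against 57.6, 58.6 and 57.4 CPM in G34V, with 68.5, 67.0 and 70.4 CPM in WT. Among these 3 groups it was lowest in G34V, where Tf2-13 was highest (log2 0.87, SE 0.044, adjusted p = 2.2e-09, edgeR's test). The flanking coding genes differed little, with log2 differences of 0.21 for taf13, a subunit of the general transcription factor TFIID, and 0.12 for arz1. Beside Tf2-11, SPBC1289.14, an adducin gene named for its place, was at 20.8 ± 0.929 CPM in G34R, 12.7 ± 0.454 in G34V and 59.8 ± 3.92 in WT (SD, n = 3; log2 0.73, SE 0.062, adjusted p = 6.2e-07, edgeR's test).

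**Figure D4:**
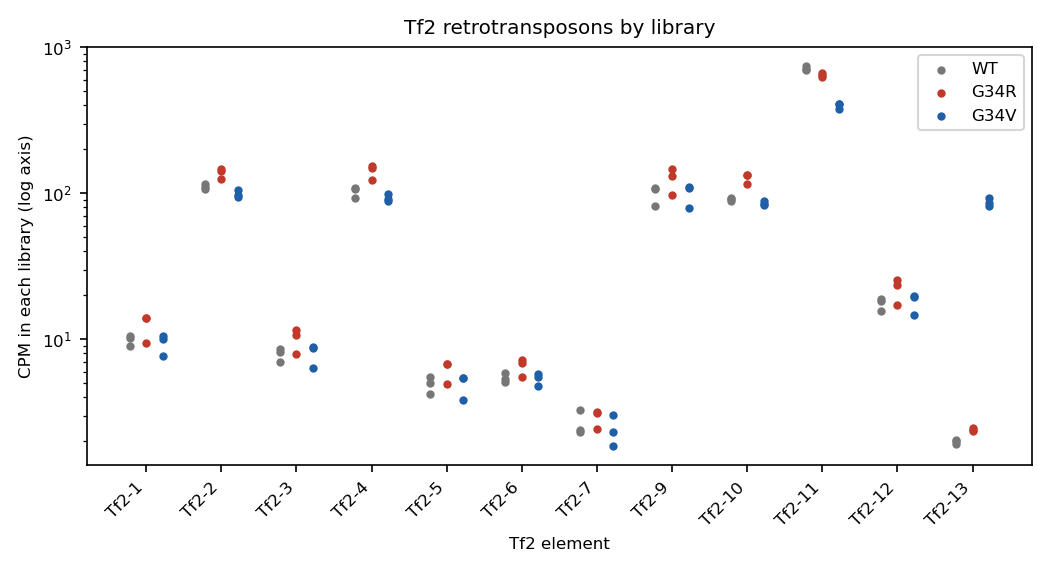
CPM of each tested Tf2 element (vertical axis, log scale) in each library of WT (grey), G34R (red) and G34V (blue). Tf2-13 lies between 81.7 and 92.6 CPM in G34V and far lower elsewhere, and Tf2-11 is lower in G34V than in WT and G34R.

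The wtf genes, a family of meiotic drivers and antidotes that lies mostly on chromosome III, had almost 1 direction. Of 25 tested, 22 were higher in G34R (88.0%, against 25.2% of all tested genes), 1 was higher in G34V and 2 were not called, with a median of 0.30. The gene wtf13 was at 14.9, 15.5 and 15.7 CPM in G34R and 10.6, 10.3 and 9.82 CPM in G34V, with 13.1, 13.0 and 13.7 CPM in WT (log2 0.58, SE 0.042, adjusted p = 4.9e-08, edgeR's test). All its G34R libraries were above WT and all its G34V libraries below. For wtf14 the means were 135 ± 1.24, 112 ± 1.01 and 119 ± 0.507 CPM (SD, n = 3; log2 0.28), and for wtf9 18.5 ± 0.325, 13.4 ± 0.852 and 20.1 ± 0.250 CPM (log2 0.45), the latter with G34R near WT. The gene higher in G34V was wtf11 (log2 −0.11, adjusted p = 0.018 in edgeR's test), whose call was lost without G34R replicate 2 (adjusted p = 0.077 in edgeR's test) or G34V replicate 2 (adjusted p = 0.10 in edgeR's test). The calls of wtf2 and wtf18 were lost without G34V replicate 2, that of wtf18 also without G34R replicate 2, and that of wtf21 without G34V replicate 3. Of the 25, 5 had at least 95% unique words, and 4 of these were higher in G34R.

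The pfl genes encode cell surface glycoproteins, some of which make cells stick together. Of 8 tested, with a median of −0.19, 6 were higher in G34V and 0 in G34R at an adjusted p under 0.05 in edgeR's test, with no other at an unadjusted p under 0.05 and 0 in G34R by DESeq2 and by limma voom. The share higher in G34V over all tested genes was 25.3%, and that higher in G34R 25.2%. Sizes among the pfl genes ranged widely. For pfl7, 41.6, 39.6 and 37.5 CPM in G34V stood against 15.5, 14.4 and 14.6 CPM in G34R and 12.8, 12.6 and 12.4 CPM in WT, with all G34V libraries far above the rest (log2 −1.42, SE 0.037, adjusted p = 3.4e-13, edgeR's test). For pfl9, 50.2 kb from the right end of chromosome I, means were 6.45 ± 0.243 CPM in G34V, 1.90 ± 0.164 in G34R and 2.36 ± 0.0808 in WT (SD, n = 3; log2 −1.77). The flocculin gene pfl4 had a log2 difference of −0.16 and pfl2 one of −0.23. The calls of pfl5 and pfl6 did not hold without single libraries of either group: adjusted p-values reached 0.13 for pfl5 without G34V replicate 2 and 0.10 for pfl6 without G34R replicate 2 in edgeR's test.

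Genes for growth and protein synthesis were higher in G34V by small amounts in large numbers. Ribosome biogenesis factors, which make and fold ribosomal RNA, had 1 direction: of 51 tested, 44 were higher in G34V (86.3%, against 25.3% of all tested genes) and 0 in G34R, with a median of −0.14. For utp4, which acts in the processing of small subunit RNA, the libraries were at 194, 192 and 198 CPM in G34V, 163, 165 and 168 CPM in G34R and 194, 193 and 195 CPM in WT. G34V and WT shared a range and G34R lay below it (log2 −0.24, SE 0.024, adjusted p = 1.5e-06, edgeR's test). The factor gene nop16 (log2 −0.28) and the methyltransferase gene rrp8 (log2 −0.23) had like sizes. Of 131 genes for cytosolic ribosomal proteins, 74 were higher in G34V, 0 in G34R and 57 not called, with a median of −0.12. Of these, rpl102 had 195, 197 and 200.3 CPM in G34V, 160.2, 158 and 159.7 CPM in G34R and 178, 177 and 179.7 CPM in WT, with WT between the mutants and no overlap (log2 −0.31, SE 0.028, adjusted p = 5.1e-07, edgeR's test), followed by rpl1603 (−0.26) and rpl3402 (−0.26). Neither list had a gene higher in G34R at an unadjusted p under 0.05, nor by DESeq2 or limma voom. Under upper quartile scaling 45 and 83 were higher in G34V, but that scaling itself moved genes by a median of −0.015, toward G34V.

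Promoters of ribosomal protein genes of fission yeast often hold the HomolD box, here searched as AGTCACA on both strands of the 250 bases before the annotated start, a motif added after the values were seen. It occurred in 64.6% of 130 ribosomal protein genes, in 5.88% of the ribosome biogenesis genes and in 4.35% of all 5056 tested coding genes. Ribosomal protein genes with and without it had the same median difference, −0.12.

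Enzymes of amino acid and purine synthesis had the same direction. Of 35 amino acid genes, 23 were higher in G34V and 1 in G34R, against 25.3% and 25.2% of all tested genes, with a median of −0.13. The arginine gene arg7, for argininosuccinate lyase, was at 44.5, 46.4 and 45.3 CPM in G34V, 32.3, 32.0 and 31.9 CPM in G34R and 44.7, 42.1 and 44.1 CPM in WT, with G34R below all others (log2 −0.50, SE 0.034, adjusted p = 2.2e-08, edgeR's test). The lysine gene lys1 had means of 495 ± 14.8, 359 ± 5.86 and 455 ± 32.7 CPM in the same order (SD, n = 3; log2 −0.46), and arg3, for ornithine carbamoyltransferase, a log2 difference of −0.26. Of 10 purine genes, with a median of −0.15, 7 were higher in G34V, among them ade9 (−0.24), ade7 (−0.20) and ade5 (−0.17). No purine gene was higher in G34R in edgeR's test, and none at an unadjusted p under 0.05, by DESeq2 or by limma voom. The auxotrophic marker genes leu1 (log2 −0.19), ade6 (−0.075) and his3 (−0.046) were expressed in both mutants at 527 and 600.1, 215 and 227, and 387 and 399 CPM in G34R and G34V, of which leu1 alone passed the test, as the higher in G34V. The marker ura4 was at 0.288 and 0.189 CPM, and its call (adjusted p = 0.033 in edgeR's test) was lost without any of 4 single libraries, 2 of each group, and in DESeq2 (adjusted p = 0.073).

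Nitrogen genes and permeases went both ways. Of 15, 8 were higher in G34V and 4 in G34R, against 25.3% and 25.2% of all tested genes, with a median of −0.13. The amino acid permease gene aat1 was at 419, 427 and 428 CPM in G34V, 217, 219 and 222 CPM in G34R and 304, 282 and 276 CPM in WT, which lay between the mutants (log2 −0.95, SE 0.032, adjusted p = 4.9e-12, edgeR's test), and the permease gene per1 had a log2 difference of −0.51. In the direction of G34R were amt3, SPBC23G7.13c and the peptide transporter gene ptr2, at 167, 146 and 149 CPM in G34R and 101, 87.6 and 87.8 CPM in G34V (log2 0.74, SE 0.071, adjusted p = 1.7e-05, edgeR's test). Among 15 genes for hexose transport and galactose use, 4 were higher in each mutant, with a median of 0.074. The gluconeogenesis gene fbp1 was at 31.0, 32.4 and 29.7 CPM in G34R, 19.6, 16.3 and 14.6 CPM in G34V and 30.2, 27.5 and 28.0 CPM in WT, so that G34V was the group apart (log2 0.86, SE 0.085, adjusted p = 1.1e-05, edgeR's test). Of the 8 ght genes, ght6 and ght1 were higher in G34R (log2 1.61 and 0.41) and ght7 higher in G34V (log2 −0.71). The call of ght1 was lost when G34R replicate 1 or 2 or G34V replicate 2 or 3 was left out, with adjusted p-values up to 0.093 in edgeR's test.

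Other nutrient and membrane lists had smaller or mixed differences. For comparison, 25.2% of all tested genes were higher in G34R and 25.3% in G34V. Of 14 iron uptake genes 2 were higher in each mutant, the siderophore transporter gene str3 having the largest difference (log2 −0.59), with a list median of 0.017. The call of sib2, a siderophore synthesis gene higher in G34R (log2 0.23), was lost without G34R replicate 1 or 2 or G34V replicate 2 or 3, with adjusted p-values up to 0.098 in edgeR's test. For phosphate, 3 of 6 genes were higher in G34R and 1 in G34V: the acid phosphatase gene pho1 was at 5057 ± 198 CPM in G34R, 4414 ± 92.2 in G34V and 3688 ± 60.8 in WT (SD, n = 3; log2 0.20), and pho4 and pho84 had log2 differences of 0.25 and 0.21, with a list median of 0.12. Among 21 genes of ergosterol synthesis, 8 were higher in G34V, such as erg28 (−0.22), and 3 in G34R, with the sterol desaturase gene erg31 at 0.37 and a list median of −0.061. Of 33 nuclear respiratory chain genes, 5 were higher in G34R, 1 in G34V and 27 not called, with a median of 0.016. A list of genes for proteins and RNAs encoded in mitochondria had 4 of 18 higher in G34R and 0 in G34V. All 4 were tRNAs, and the share was no higher than the 25.2% of all tested genes. The list median was 0.15, and −0.017 without G34R replicate 2, with 0 higher in G34V also at an unadjusted p under 0.05, by DESeq2 and by limma voom. The class of all rows assigned to mitochondria had 26 tested, with 4 higher in G34R, 1 in G34V and a median of −0.0089.

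Genes of the sexual cycle were more often higher in G34R than all tested genes, of which 25.2% were higher in G34R and 25.3% in G34V. Fission yeast mates and sporulates when starved, under the transcription factor Ste11 and then Mei4. Of 16 genes for Ste11 and pheromone signalling, 9 were higher in G34R and 3 in G34V, with a median of 0.13. The MAP kinase gene spk1 was at 52.3, 54.6 and 53.9 CPM in G34R, 39.5, 39.7 and 38.5 CPM in G34V and 38.3, 39.3 and 36.7 CPM in WT, with G34R above the others (log2 0.45, SE 0.031, adjusted p = 2.9e-08, edgeR's test). For mei2, which encodes the RNA-binding protein that starts meiosis, means were 239 ± 12.9, 189 ± 9.30 and 197 ± 6.16 CPM (SD, n = 3; log2 0.34). The gene of the factor, ste11, was at 397, 389 and 345 CPM in G34R and 332, 279.7 and 259 CPM in G34V (log2 0.38, SE 0.089, adjusted p = 0.0061, edgeR's test). Among 26 early meiotic genes 16 were higher in G34R and 2 in G34V, with a median of 0.13, led by rec25 (log2 0.36) and rec11 (0.30), whose proteins act in meiotic chromosome axes, and by meu13 (0.71). Of 24 sporulation genes 14 were higher in G34R and 4 in G34V, with a median of 0.10. The meiotic septin gene spn6 was at 44.8, 44.5 and 44.7 CPM in G34R, 32.7, 33.4 and 33.3 CPM in G34V and 21.9, 20.97 and 21.2 CPM in WT, above WT in both mutants (log2 0.43, SE 0.028, adjusted p = 1.6e-08, edgeR's test).

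Genes of the M cell type had 4 of 9 members higher in G34R and 1 in G34V, against 25.2% and 25.3% of all tested genes. The median of the M-cell list was 0.14. Of 4 P-cell genes, with a median of −0.035, 1 was called: map3 (log2 0.10, adjusted p = 0.044 in edgeR's test). That call was lost in 7 alternatives, among them limma voom and the leaving out of G34R replicate 1 or 3 or G34V replicate 2 or 3. M-factor, the pheromone of M cells, is encoded by 3 genes. Of these, mfm1 was at 103, 122.97 and 121 CPM in G34R, 68.5, 66.6 and 73.2 CPM in G34V and 51.1, 55.2 and 47.9 CPM in WT (log2 0.74, SE 0.082, adjusted p = 5.4e-05, edgeR's test). For mfm2 the log2 difference was −0.059 and for mfm3 0.14, and neither passed the test. The transcription factor gene mat1-Mi was at 0.872 ± 0.0993 CPM in G34R and 0.488 ± 0.0231 in G34V (SD, n = 3; log2 0.86), but none of its 50-base words is unique in the reference, and the part of reads that align to several places in this difference was not tested. Searched on both strands of 250 bases, the Ste11 core CTTTGTT occurred before 8 of the 9 tested M-cell genes (88.9%), 56.3% of the Ste11 list and 8.66% of all tested coding genes. The region before mfm1 is shown as the gene of its list with the largest difference above 5 CPM (RefSeq, build ASM294v3, plus strand, chrI:4916765-4917014), with the match, here on the opposite strand and 79 bases before the start, in capitals.
mfm1: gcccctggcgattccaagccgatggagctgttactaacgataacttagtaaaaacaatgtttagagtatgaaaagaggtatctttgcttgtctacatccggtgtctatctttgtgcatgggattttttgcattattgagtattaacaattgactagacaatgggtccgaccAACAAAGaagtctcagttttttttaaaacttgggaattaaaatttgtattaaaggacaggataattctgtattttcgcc

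Of 16 heat shock chaperone genes 4 were higher in G34R and 4 in G34V, about the share of all tested genes (25.2% and 25.3%), with a median of −0.055. Beside hsp16, hsp9 was higher in G34R, at 1495, 1554 and 1360.1 CPM against 1212, 1079.8 and 989 CPM in G34V (log2 0.43, SE 0.076, adjusted p = 0.00064, edgeR's test), whereas hsp104, for the disaggregase, stood at 602 ± 18.9 and 625 ± 13.3 CPM (SD, n = 3; adjusted p = 0.20 in edgeR's test). In the core environmental stress response 6 of 22 genes were higher in G34R and 3 in G34V, with zym1 the largest, followed by the transporter gene caf5 (0.26) and the thioredoxin gene trx2 (0.19). The median of this list, 0.12, ranged from 0.039 without G34V replicate 3 to 0.17 without G34V replicate 1. The heat shock element core, searched as GAANNTTC, occurred in the 250 bases before 56.3% of the chaperone genes and 9.47% of all tested coding genes, and the Atf1-type site TGACGT before 31.8% of the stress list and 5.48% of all. The region before hsp16 is shown for the coding gene with the largest difference in the direction of G34R (RefSeq, build ASM294v3, minus strand, chrII:2660993-2661242), with its 1 match, 93 bases before the start, in capitals.
hsp16: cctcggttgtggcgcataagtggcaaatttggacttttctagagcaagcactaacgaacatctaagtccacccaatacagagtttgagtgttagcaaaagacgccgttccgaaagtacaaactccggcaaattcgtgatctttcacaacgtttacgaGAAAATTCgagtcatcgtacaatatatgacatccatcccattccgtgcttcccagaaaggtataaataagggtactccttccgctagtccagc

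Chromatin and repair genes differed by small amounts. The shares over all tested genes were 25.2% higher in G34R and 25.3% higher in G34V. The gene set2 was at 109, 109 and 112 CPM in G34R, 126, 129 and 135 CPM in G34V and 133, 129 and 122 CPM in WT, with G34R below both (log2 −0.24, SE 0.038, adjusted p = 0.00013, edgeR's test). Of 19 genes of the Set2 pathway and of histone chaperones, 4 were higher in G34V and 3 in G34R, the latter with 2 genes linked to the HIRA chaperone, hip3 (0.12) and slm9 (0.11), with a median of −0.026. Among 24 genes of heterochromatin, 8 were higher in G34R, among them epe1 (0.20) and the acetyltransferase gene mst2 (0.18), and 6 in G34V, among them rdp1 (−0.16), the RNA polymerase of the RNAi pathway, with a median of −0.0040. Core histones, with a median of −0.012, had 1 of 10 called, the H2B gene htb1 (log2 0.18, adjusted p = 0.00087 in edgeR's test), higher in G34R. None was higher in G34V, also at an unadjusted p under 0.05, by DESeq2 and by limma voom.

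Of 27 genes for homologous recombination, 8 were higher in G34R and 4 in G34V, against 25.2% and 25.3% of all tested genes. The median of the list was −0.019. The nuclease gene mre11 was at 80.0, 78.4 and 78.1 CPM in G34R, 67.2, 67.8 and 67.2 CPM in G34V and 66.7, 67.7 and 65.4 CPM in WT, with G34R above the others (log2 0.23, SE 0.022, adjusted p = 1.3e-06, edgeR's test). The gene of its partner nbs1 (log2 0.24) and the Rad52 family gene rti1 (log2 0.41) had the same direction. Of 16 checkpoint genes 2 were higher in G34R and 3 in G34V, with the kinase gene tel1 at −0.16 and the clamp gene rad9 at −0.12, and chk1 at 0.091, and a list median of 0.032. Of 35 DNA replication genes 11 were higher in G34V and 5 in G34R, with a median of −0.034. The MBF regulators and targets, which act at the start of S phase, had 10 of 19 higher in G34R and 0 in G34V in edgeR's test, with 11 and 0 at an unadjusted p under 0.05, 11 and 0 in DESeq2, 10 and 0 in limma voom, and a median of 0.10. The cyclin gene cig2 led them, at 148, 143 and 142 CPM in G34R, 115, 115 and 109.9 CPM in G34V and 146, 158 and 156 CPM in WT, where G34V was the group below the others (log2 0.35, SE 0.032, adjusted p = 6.4e-07, edgeR's test). The MBF site ACGCGT occurred in the 250 bases before 26.3% of these genes and 2.65% of all tested coding genes.

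**Figure D5:**
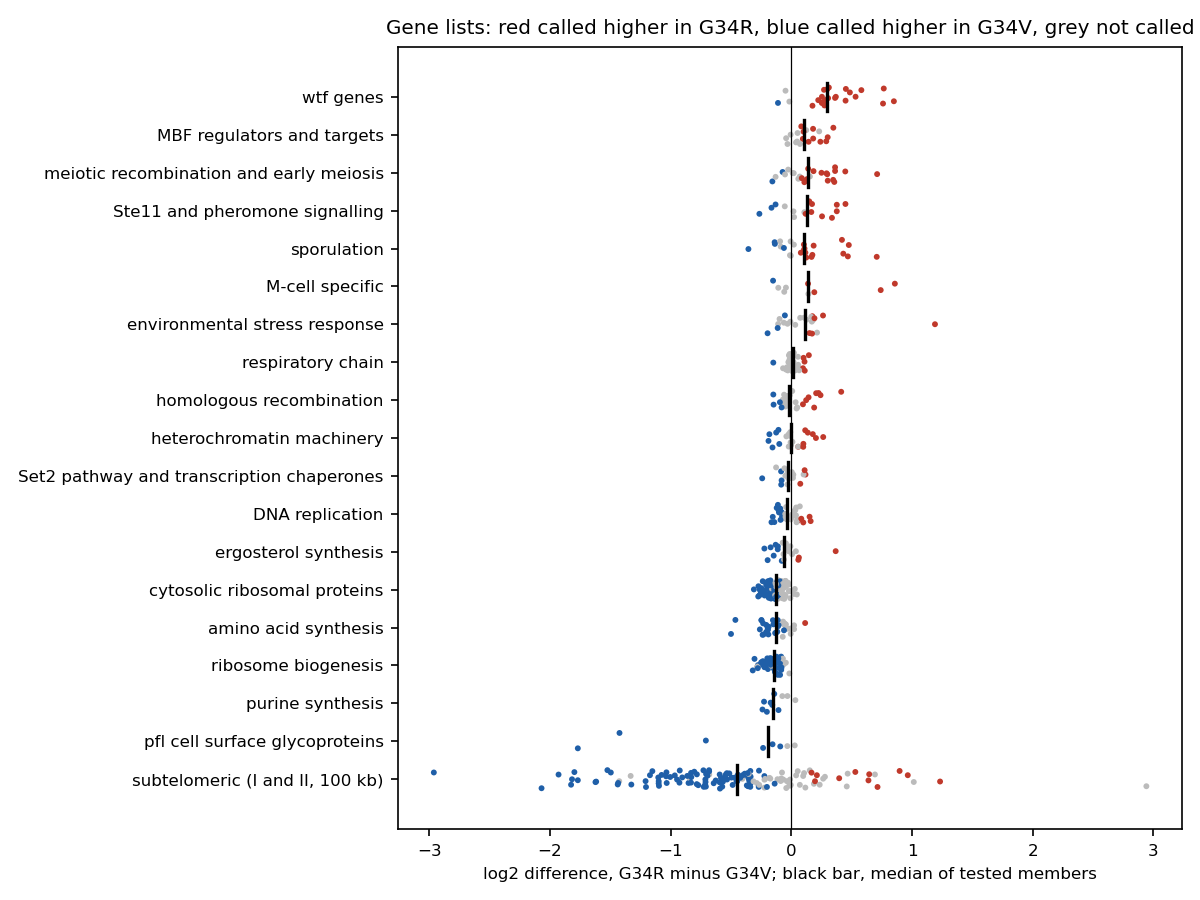
Log2 difference, G34R minus G34V (horizontal axis), of each tested member of 19 gene lists, red where called higher in G34R, blue where called higher in G34V and grey where not called; black bars are medians. The wtf genes lie mostly to the right of 0, the ribosome and synthesis lists are narrow and to the left, and the subtelomeric genes reach from −2.96 to 2.94. The subtelomeric point at 2.94, SPNCRNA.280, was not called, and the largest called there toward G34R was SPAC869.09 at 1.23.

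Of 671 tested SPNCRNA genes, 170 were higher in G34R (25.3%) and 105 in G34V (15.6%), with a median of 0.066. The share over all tested genes was 25.2% and 25.3%, so that the share higher in G34R was at the background and that higher in G34V below it. Among those with at least 5 CPM in a mutant, the largest differences toward G34V were in SPNCRNA.862, next to cao1, and SPNCRNA.291 and SPNCRNA.293 near the left end of chromosome II (log2 −1.28 and −1.28). Toward G34R they were in SPNCRNA.1287, next to Tf2-13, SPNCRNA.397 (12.4 ± 0.921 CPM in G34R, 6.81 ± 0.625 in G34V and 16.5 ± 1.23 in WT; log2 0.86) and SPNCRNA.1604 (log2 0.71). The polyadenylated prl RNAs had 13 of 35 higher in G34R and 3 in G34V and a median of 0.21, with prl65 at 19.0 ± 1.98 against 10.9 ± 0.152 CPM (log2 0.80). Of 44 small nucleolar and spliceosomal RNAs 6 were higher in G34V and 2 in G34R, with a median of −0.074. Nuclear tRNA genes had 20 of 80 higher in G34R and 3 in G34V, with a median of 0.45, but 65 of these genes have under 95% unique words, and reads that aligned to several places also took a larger share in G34R. Their part in the tRNA difference was not tested. In the 15 tRNA genes with at least 95% unique words, 4 were higher in G34R and 11 were not called, with a median of 0.61. The median of the other 65 was 0.41. The share of tRNA genes higher in G34R, 25.0%, was at the 25.2% of all tested genes, and that higher in G34V, 3.75%, was below the 25.3%. Over all 80 tested tRNA genes, those with the lowest p were SPBTRNALEU.10 (log2 1.83) and SPATRNAPRO.02 (1.17). None of the 50-base words of SPBTRNALEU.10 is unique, and its means were 1.40 CPM in G34R and 0.385 CPM in G34V.

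Antisense RNAs named after their sense gene had the highest share of calls among these noncoding classes. Of 617 tested, 208 were higher in G34R (33.7%) and 151 in G34V (24.5%), against 25.2% and 25.3% of all tested genes. The median of the antisense RNAs was 0.040. That antisense RNA was counted apart from its sense gene was checked on 18 SPNCRNA genes enclosed by an opposite-strand coding gene, of which 15 had more than 3 counts in all 6 libraries. For 604 antisense RNAs the sense gene was tested too. Where the antisense RNA was higher in G34R, the sense gene was higher in G34V in 79 pairs, higher in G34R in 34 and not called in 90. Where it was higher in G34V, the sense gene was higher in G34R in 59 pairs, higher in G34V in 34 and not called in 56. For antisense RNAs not called, the sense gene was higher in G34R in 78 pairs and higher in G34V in 66. In 108 pairs neither was called, and a link between the 2 directions was not tested. The largest difference was in the RNA antisense to grt1, at 12.01, 10.3 and 11.5 CPM in G34V and 3.45, 3.42 and 3.38 CPM in G34R, with 8.06, 8.06 and 8.14 CPM in WT (log2 −1.73, SE 0.056, adjusted p = 2.9e-12, edgeR's test), the same direction as grt1 itself. The RNA antisense to SPBPB10D8.02c also went with its sense gene (log2 −1.44). In the direction of G34R, RNAs antisense to SPAC56F8.03 (log2 0.81), to SPAC27E2.02 (0.77) and to srp2, which encodes a splicing factor (0.76), had the largest differences above 5 CPM. The RNA antisense to SPAC27E2.02 was at 10.9 ± 0.123 CPM in G34R, 6.40 ± 0.110 in G34V and 4.47 ± 0.288 in WT (SD, n = 3), above WT in both mutants.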

How the data were processed

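Strand-specific, ribosomal RNA depleted RNA-seq was made of 12 libraries, per the labels' protocols. The deposited values are raw read counts per gene, made by the authors with CASAVA 1.7, cutadapt, STAR, SAMtools and HTSeq on build ASM294v2, per the submitters' processing notes. For other versions and for HTSeq's strand setting the sources used here give nothing. From these counts, rows that name no gene were left out, and gene rows held 74.3% of reads in G34R and 75.6% in G34V. edgeR 4.0.16 (filterByExpr, TMM, robust quasi-likelihood F-test) was fitted to all 12 libraries, with residual df of 8, contrast G34R minus G34V, Benjamini-Hochberg adjustment over 6602 genes and calls at 0.05. CPM use TMM-scaled library sizes, SE is the log2 difference over the square root of F, and no dates or batches are labelled. DESeq2, limma voom, other scalings and filters, and each library left out were alternatives. Members and the 35 gene lists were chosen with earlier results of these data known. Named genes are the 12 coding genes per direction, and 3 SPNCRNA and 3 antisense RNAs per direction, with the largest differences among called, non-overlapping genes of at least 5 CPM in a mutant, the 3 lowest-p members of each list, families, and label checks; others are declared. Gene names, distances and sequences come from RefSeq (ASM294v3), where 6223 of 7013 names matched.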

Additional observations from a re-analysis of the deposited data

Results flagged for a closer look

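For 21 of the genes named for the size of their difference, G34R and G34V were both called against the shared WT libraries, in opposite directions, and the direct contrast (log2, G34R minus G34V) tests the difference between the mutants. G34R was above WT and G34V below it for ght6 (1.61), SPBC2G2.17c (1.56), SPCC737.04 (1.37), SPAC869.09 (1.23), zym1 (1.19), cta3 (1.14), SPCPB16A4.06c (1.05) and the noncoding RNA SPNCRNA.1287 (0.87). For the RNA antisense to srp2 (srp2-antisense-1) the difference was 0.76 in the same sense.

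G34V was above WT and G34R below it for SPBPB10D8.02c (−1.82), pfl9 (−1.77), SPBPB2B2.01 (−1.62), alr2 (−1.44), SPAC977.02 (−1.43), SPBPB2B2.05 (−1.20), SPBPB10D8.01 (−1.15) and cao1 (−1.10). The same held for SPNCRNA.862 (−1.46), SPNCRNA.291 (−1.28) and the RNAs antisense to grt1 (grt1-antisense-1, −1.73) and isp3 (isp3-antisense-1, −0.73). G34R differed little from WT in 3 of these genes, by 0.12 on the log2 scale for zym1 (adjusted p = 0.0072 in edgeR's test) and 0.22 for SPAC869.09 (adjusted p = 0.046 in edgeR's test). The cao1 difference of G34R from WT was also small, −0.053 on the log2 scale with an adjusted p of 0.046 in edgeR's test, while that of G34V was 1.05.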

How the results depend on the processing

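No paired analysis was possible because replicate numbers were given in accession order and pair nothing. No named gene reversed its direction under any alternative run while called. The count of genes at least 2-fold higher in G34R, 39, was 20 with a minimum of 1 CPM in 3 libraries and 16 in protein-coding genes alone, and that of G34V, 42, was 25 in protein-coding genes alone. These settings tested fewer genes, 6224 with the minimum of 1 CPM and 5056 in protein-coding genes alone. In the main fit, 16 of the 39 and 26 of the 42 were protein-coding. Leaving out each library in turn gave 1375 to 1594 genes higher in G34R, 1377 to 1594 higher in G34V, and 38 to 44 and 40 to 48 at 2-fold. Without G34V replicate 3, which stood apart, the first pair was 1424 and 1471. Upper quartile scaling moved the median of all genes by −0.015 and gave 1457 higher in G34R and 1888 in G34V, so that 43.6% of calls were higher in G34R against 50.0% in the main scaling. DESeq2 gave 1657 and 1747, limma voom 1668 and 1658. All counts of Set2D replicate 3 are even, and with them halved, an alternative chosen after seeing the data, the counts were 1662 and 1695. Differences of under 3 counts in a library cannot be seen at this depth.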
